A study of Mus musculus with 4 samples.

Results

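Autophagy and lysosome genes were examined in mouse astrocytes that received either NC siRNA or Ptbp1 siRNA. A fixed list of 43 genes was read from the deposited table of 54532 genes by gene symbol. It held the autophagosome machinery, lysosomal hydrolases and membrane proteins, subunits of the proton pump and the TFEB family of transcription factors. All 43 were found under 1 identifier each, and all 43 passed the filter on low counts. Astrocytes are the glial cells that maintain ions, transmitters and nutrients around neurons, and Ptbp1 encodes a splicing repressor of non-neuronal cells. An siRNA is a short duplex that directs the breakdown of a matching transcript, and each siRNA group had 2 libraries (NC siRNA 1 and 2, Ptbp1 siRNA 1 and 2). Strain, age, dose and time after treatment are not in the labels. Nothing in them tells separate cultures from repeat libraries of 1 culture, and p-values cover only the spread between these libraries, which may be technical.

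In autophagy, a membrane grows around cytoplasmic cargo, closes as an autophagosome and fuses with a lysosome, where acid hydrolases break the content down. The ULK kinase complex starts the process, the Beclin 1 lipid kinase complex marks the membrane, and a conjugation system attaches proteins of the Atg8 family (LC3 and GABARAP) to it. TFEB, TFE3 and MITF are transcription factors that bind the E-box CACGTG in promoters of lysosomal genes, and in astrocytes the lysosome is known for degrading engulfed material.

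Library totals lay between 14557844 and 16009248 counts, and the 43 genes took 0.763% to 0.797% of them. The targeted gene stood at 300.4 and 295 CPM (counts on a common library size, scaled by TMM) with NC siRNA and at 203 and 196 CPM under Ptbp1 siRNA. Ptbp1 was thus 33.1% lower (edgeR quasi-likelihood test, Benjamini-Hochberg adjusted p = 0.00127). All 10 astrocyte markers had counts in every library, as had all 12 microglia and macrophage markers, so that this does not tell the cell types apart. The astrocyte markers had a summed level of 2271 to 2407 CPM under NC siRNA against 2093 to 2362 CPM under Ptbp1 siRNA. Markers of other cells were present too. The 12 microglia and macrophage markers summed to 1059 and 1068 CPM against 1060 and 994 CPM, none of them at 0, and the 8 fibroblast markers to 2859 and 2581 against 2560 and 2133 CPM, with Dpt at 0 in some libraries. The 10 choroid plexus markers summed to 137 and 497 against 123 and 129 CPM, with Kl, Kcnj13 and Prlr at 0 in some libraries. The 8 oligodendrocyte lineage markers summed to 334 and 328 against 332.5 and 299.96 CPM, and the 8 neuron markers to 97.4 and 100.5 against 97.9 and 98.7 CPM, with Mag and Rbfox3 at 0 in some libraries. NC siRNA 2 thus stood apart in choroid plexus genes. In bulk samples, fewer cells of a type and less RNA per cell cannot be told apart.

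None of the 43 autophagy and lysosome genes differed between the siRNAs past an adjusted p of 0.05 in the edgeR test, where 0.0244% of the 16368 tested genes did. At an unadjusted p under 0.05 there was 1 member, Becn1, which was lower. None was higher, against a background of 2.29% of tested genes lower and 1.69% higher. DESeq2 gave 0 members at an adjusted p under 0.05 and 0 at an unadjusted p under 0.05, where 0.512% of all genes had an unadjusted p under 0.05. Limma on log2(FPKM + 1) gave 0 and 1, with 0 of all genes called and 4.67% at an unadjusted p under 0.05. The median log2 fold change (Ptbp1 siRNA over NC siRNA) was -0.01 over the members and 0.00036 over all genes tested, and the members ran from -0.38 to 0.13. In the authors' deposited table, 0 of the 43 had a p-value under 0.05.

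The intervals were computed gene by gene and cover only the spread between these libraries, which may be technical. They therefore do not bound the effect of the siRNA. With 2 libraries per group, their width also leans on a spread estimated across genes. The 95% interval of the fold change lay within 1.5-fold in either direction for 42 of 43 members, Mitf being the exception. Over all tested genes the 1.5-fold share was 67.1%. The members had higher counts than most genes, with a median level of 93.9 CPM against 22.6 CPM over all genes tested.

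**Figure D1:**
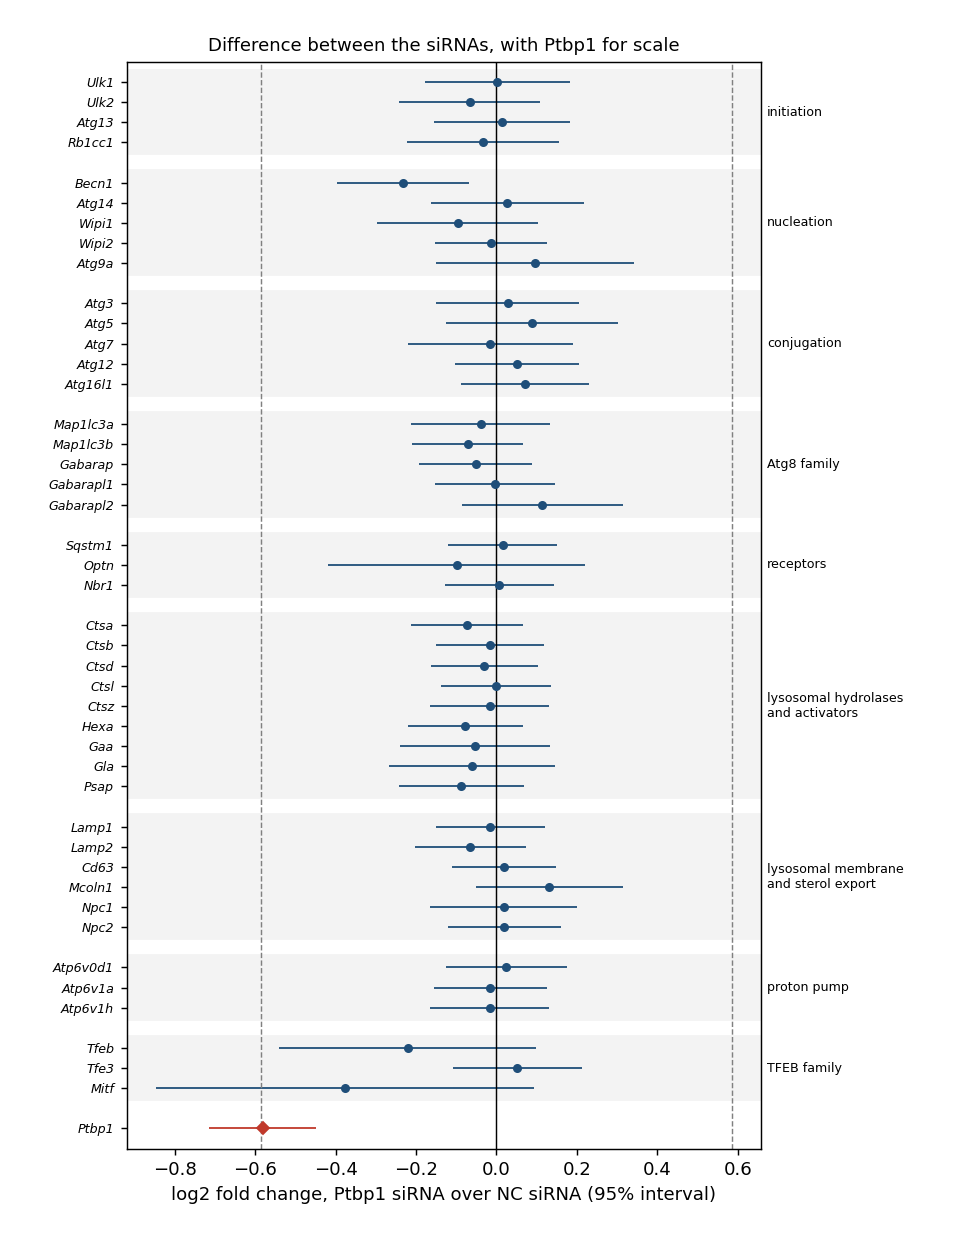
Log2 fold change of each gene, Ptbp1 siRNA over NC siRNA, with its 95% interval from the edgeR fit, grouped by role (rows), and Ptbp1 at the bottom for scale. Dashed lines mark a 1.5-fold difference in either direction. The intervals of 42 of the 43 genes cross 0, Becn1 being the exception, and among the 43 that of Mitf alone passes a dashed line. The interval of Ptbp1 passes one too.

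The promoters of the list were read for the E-box of the TFEB family. The members were chosen by function and not by sequence, but that E-box is known from promoters of lysosomal genes. Its share among the members is therefore not an independent finding. RefSeq promoters (GRCm38.p6, 250 bases before to 50 after a gene's start) were matched for 35 of the 43 genes. Atg12, Atg16l1, Atp6v1h, Becn1, Ctsb, Map1lc3a, Npc1 and Rb1cc1 had no entry. CACGTG, which reads the same on both strands, occurred in the windows of 13 of the 35 members (37.1%) and of 8.09% of all 27025 genes in the table. The longer TCACGTG, searched on both strands and containing CACGTG, occurred in 11 of the 35 (31.4%) and in 4.29% of all genes. The palindrome TCACGTGA, which contains both, occurred in 7 of the 35 and in 1.12% of all genes. Its extension by a G before and a C after occurred in 0 of the 35 and in 0.37% of all genes. These are descriptions of letters and not of binding.

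The matches lay unevenly over the roles. They were in 5 of 8 hydrolase genes (Ctsa, Ctsd, Ctsl, Gaa and Gla), in 3 of 3 conjugation genes (Atg3, Atg5 and Atg7) and in both proton pump genes matched (Atp6v0d1 and Atp6v1a), as well as in Lamp1, Mcoln1 and Atg14. None was found in the windows of the initiation, Atg8, receptor and TFEB family genes. Stretches around a match that lie outside the annotated exons of the gene itself are shown for 5 genes. Exons of neighbouring genes were not checked. The 5 genes show how the E-box sits in each. They run 5′ to 3′ on the gene's strand, in lower case with every CACGTG in capitals. Gla is at chrX:134601169-134601224 (minus strand), Gaa at chr11:119267798-119267853 (plus), Lamp1 at chr8:13159091-13159146 (plus), Atp6v1a at chr16:44139360-44139415 (minus) and Atg3 at chr16:45158710-45158765 (plus).
Gla: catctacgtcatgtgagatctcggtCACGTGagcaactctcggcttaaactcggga
Gaa: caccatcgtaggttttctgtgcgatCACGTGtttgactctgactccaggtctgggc
Lamp1: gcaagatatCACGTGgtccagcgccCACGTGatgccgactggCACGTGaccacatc
Atp6v1a: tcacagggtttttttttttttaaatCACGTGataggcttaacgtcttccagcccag
Atg3: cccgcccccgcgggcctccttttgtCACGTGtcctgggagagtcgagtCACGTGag
Lamp1 had 4 matches in its window, the most of any member. The 13 genes with CACGTG had a median log2 fold change of -0.0148 (range -0.07 to 0.13) and the 22 without it a median of -0.0151 (range -0.38 to 0.11).

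Levels between genes were compared per length, as the deposited FPKM (fragments scaled by gene length and library size). Of the 43 members, 39 lay above the median of all tested genes (5.32 FPKM), and the members' own median was 19.5 FPKM. The highest was Ctsd, the aspartic protease cathepsin D, at 398 and 410 FPKM under NC siRNA against 412 and 379 FPKM under Ptbp1 siRNA. Next stood Sqstm1, the cargo receptor p62, at 254 FPKM over all libraries, and Psap, the precursor of the saposins that help hydrolases reach lipids, at 215 FPKM. Ctsb, Lamp1, Gabarap, Ctsz and Cd63 followed between 111 and 163 FPKM. At the low end stood Mitf at 1.11, Tfeb at 2.25, the scramblase gene Atg9a at 4.46 and the cholesterol transporter gene Npc1 at 4.57 FPKM. Ctsb, Ctsd, Sqstm1, Psap and Lamp1 together held 48.4% of the members' counts.

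**Figure D2:**
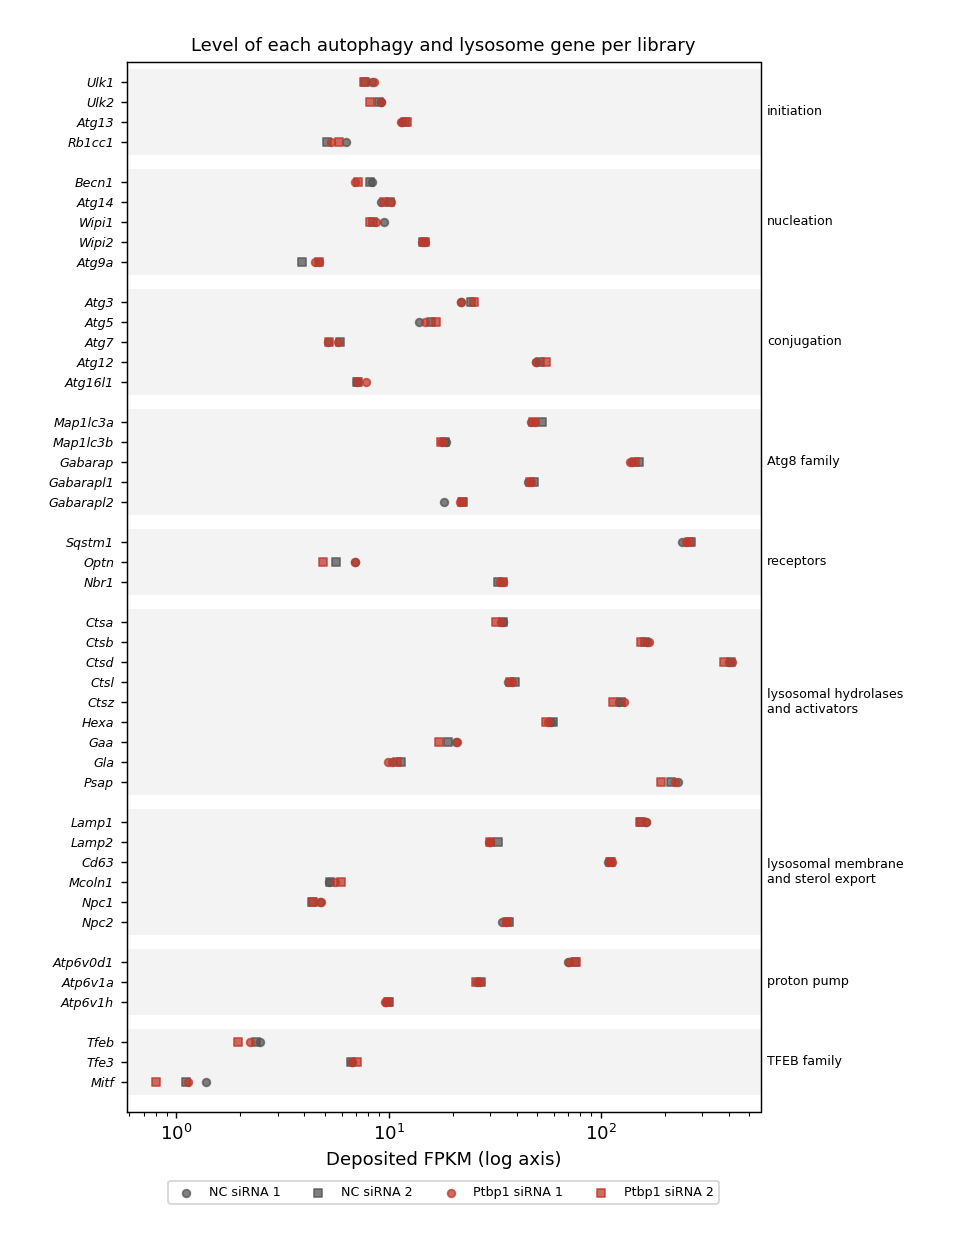
Deposited FPKM (log axis) of each of the 43 genes in the 4 libraries, grouped by role. Grey points are NC siRNA and red points Ptbp1 siRNA, with circles for library 1 and squares for library 2. The levels span from Mitf at 1.11 to Ctsd at about 400 FPKM, and the 4 points of a gene mostly lie on top of each other.

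The initiation genes encode the ULK1 and ULK2 kinases, their partner ATG13 and the scaffold FIP200 (Rb1cc1). Ulk1 stood at 54.3 and 50.5 CPM under NC siRNA against 55.5 and 49.6 CPM under Ptbp1 siRNA, a log2 fold change of 0.0022 (SE 0.085). Ulk2 and Atg13 had log2 fold changes of -0.07 and 0.01. Rb1cc1 was at 92.6 and 76.0 CPM against 78.7 and 86.0 CPM. The groups overlapped in all 4 genes, and the NC siRNA libraries alone spanned the range of Rb1cc1.

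Becn1 encodes Beclin 1, a core subunit of the lipid kinase complex of nucleation (ENSMUSG00000035086; GRCm38 chromosome 11, 101285952 to 101302286, minus strand, protein coding). Its level was 59.1 and 57.9 CPM under NC siRNA against 49.0 and 50.6 CPM under Ptbp1 siRNA. Both Ptbp1 siRNA libraries lay below both NC siRNA libraries, and the libraries of a group were close together. The log2 fold change was -0.23 (SE 0.078, 95% interval -0.40 to -0.07), a fold of 0.852, with an unadjusted edgeR p of 0.00878 and an adjusted p of 1.00. DESeq2 gave an unadjusted p of 0.0521. The value ran from -0.25 to -0.21 when each library was left out in turn. With groups that do not overlap, its sign could hardly have turned in this check.

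Becn1 shares exonic bases with another gene. Cntd1 runs on the opposite strand, and its exons cover 3104 of the 7065 exonic bases of Becn1 (43.9%) in GENCODE M21. The deposited counts of Cntd1, which was looked up after the values of Becn1 were seen, were 4 and 4 with NC siRNA and 12 and 14 with Ptbp1 siRNA, where Becn1 had 947, 868, 712 and 754. Without strand, reads from the shared bases cannot be told apart, and no source used here gives the strand setting of the counting. The part of the overlap in the counts of Becn1 was not tested.

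The other nucleation genes gave overlapping groups. Atg14, which directs the kinase complex to autophagy, stood at 40.05 and 44.2 CPM against 44.6 and 41.3 CPM. Wipi1 and Wipi2, readers of the lipid that the complex makes, lay at -0.10 (SE 0.094) and -0.01 (SE 0.065) as log2 fold changes. Atg9a was at 27.3 and 22.6 CPM against 26.2 and 27.2 CPM. For Atg9a the lowest and the highest library were both NC siRNA.

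The conjugation system links ATG12 to ATG5 with the help of the activating enzyme ATG7, and the ATG12-ATG5-ATG16L1 complex then passes LC3 from ATG3 to the membrane. Atg16l1 was at 68.6 and 68.8 CPM under NC siRNA against 75.5 and 69.0 CPM under Ptbp1 siRNA. The groups did not overlap, but Ptbp1 siRNA 2 lay next to the NC siRNA libraries, and the log2 fold change was 0.07 (SE 0.075, edgeR adjusted p = 1.00). Atg5 stood at 32.7 and 37.4 against 35.1 and 39.4 CPM and Atg12 at 124 and 129 against 124 and 138 CPM. In both genes library 2 was above library 1 with either siRNA. Atg3 and Atg7 had log2 fold changes of 0.03 and -0.02.

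Among the Atg8 family, Gabarap had the highest level per length, at 143 FPKM over all libraries, followed by Map1lc3a at 49.1, Gabarapl1 at 46.7, Gabarapl2 at 21.1 and Map1lc3b at 18.1 FPKM. Map1lc3a and Gabarapl1 overlapped in their ranges, as did Gabarapl2 and Map1lc3b, and the place of Map1lc3b rests on a gene length of 7517 bases in the table, the longest of the family. Map1lc3b, the form of LC3 most used as an autophagosome marker, stood at 141 and 140 CPM under NC siRNA against 134 and 132 CPM under Ptbp1 siRNA. Both Ptbp1 siRNA libraries were lower, by a log2 fold change of -0.07 (SE 0.065, 95% interval -0.21 to 0.07, edgeR adjusted p = 1.00). Gabarapl2 was at 42.5 and 52.0 CPM against 50.7 and 51.5 CPM, so that NC siRNA 1 alone was low. Copies elsewhere in the genome hold 12.2% of the 50-base stretches of Gabarapl2, 6.01% of those of Map1lc3b and 11.1% of those of the membrane gene Cd63, which leaves part of their counts uncertain.

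The cargo receptors bind ubiquitin-marked material and LC3. Sqstm1 stood at 813 and 893 CPM under NC siRNA against 847 and 877 CPM under Ptbp1 siRNA, with both Ptbp1 siRNA libraries between the NC siRNA libraries. Nbr1 was at 239 and 227 against 230.4 and 238 CPM. Their log2 fold changes were 0.02 and 0.0068, each with an SE of 0.064. Optn, the receptor optineurin, was at 26.2 and 21.3 against 26.04 and 18.4 CPM, and library 2 was the lower one with either siRNA.

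All 9 hydrolase and activator genes had a log2 fold change below 0, from -0.09 to -0.0013, and none passed the edgeR test (adjusted p = 1.00 for each, 0 at an unadjusted p under 0.05). The median was -0.05, and 49.8% of all tested genes were below 0. Ctsd stood at 941 and 968 CPM under NC siRNA against 975 and 896 CPM under Ptbp1 siRNA. Ctsb, the cysteine protease cathepsin B, was at 1005 and 983 against 1028 and 936 CPM. In both genes Ptbp1 siRNA 1 was the highest library and Ptbp1 siRNA 2 the lowest. Psap was at 632 and 587 against 617 and 531 CPM, and Gaa, the acid glucosidase that degrades glycogen, at 99.5 and 91.8 against 101 and 83.1 CPM. Here too Ptbp1 siRNA 2 was the lowest.

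Without Ptbp1 siRNA 2, 3 of the 9 were below 0 and the median was 0.02. With another scaling (median-ratio) 8 of 9 were below 0. The summed level of the 9 genes was 3405 and 3385 CPM under NC siRNA against 3462 and 3151 CPM under Ptbp1 siRNA. Ptbp1 siRNA 2 was also the lowest library for the summed markers of astrocytes (2093 CPM), of microglia and macrophages (994 CPM) and of fibroblasts (2133 CPM), and their part in the hydrolase levels was not tested.

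Within the hydrolases, Hexa and Ctsa had groups that did not overlap, both lower (22.2% of the 9, against 15.9% of all tested genes). Hexa, a subunit of the enzyme that degrades gangliosides, was at 117 and 119 CPM under NC siRNA against 113 and 111 CPM under Ptbp1 siRNA (log2 fold change -0.08, SE 0.067). Exons of Tmem202 on the opposite strand cover 12.8% of its exonic bases. Ctsa, which protects other hydrolases in a complex, was at 163.5 and 164 against 161 and 151 CPM (-0.07, SE 0.066). Exons of Pltp and Neurl2, also on the opposite strand, cover 10.5% and 6.87% of those of Ctsa. Ctsl and Ctsz, further cysteine cathepsins, had log2 fold changes of -0.0013 and -0.02, and Gla, the enzyme that trims galactose from lipids, had -0.06.

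The membrane and sterol export genes lay on both sides of 0. Mcoln1 encodes the calcium channel TRPML1 of the lysosomal membrane (ENSMUSG00000004567; chromosome 8, 3500457 to 3515232, plus strand). It stood at 39.9 and 40.3 CPM under NC siRNA against 42.5 and 45.3 CPM under Ptbp1 siRNA. Both Ptbp1 siRNA libraries were higher, and the log2 fold change was 0.13 (SE 0.086, 95% interval -0.05 to 0.31, edgeR adjusted p = 1.00). Without each library in turn it ran from 0.09 to 0.18. As the groups did not overlap, leaving out a library could hardly have turned its sign. Lamp1 and Lamp2, the main glycoproteins of that membrane, stood at 439 and 416 against 436 and 410 CPM and at 287 and 313 against 285 and 288 CPM. The tetraspanin gene Cd63 and the cholesterol transfer genes Npc1 and Npc2 each had a log2 fold change of 0.02. The groups overlapped in these 5 genes.

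Several members share exonic bases with another annotated gene, which leaves their counts uncertain. Exons of Gm49369 and Gm29253 on the same strand, both without counts, cover 34.4% of Ctsd and 31.8% of Atg9a. On the opposite strand, 1700101I11Rik covers 28.3% of Gabarapl1, Mrnip 17.3% of Sqstm1 and Fdft1 12.8% of Ctsb. Gm47123 on the opposite strand and Gm49230 on the same strand, both without counts, cover 26.8% and 6.09% of Ctsl.

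The proton pump (V-ATPase) acidifies the lysosome. Its members Atp6v0d1, Atp6v1a and Atp6v1h had log2 fold changes of 0.02, -0.01 and -0.02, with SE of 0.067 to 0.071. Atp6v0d1, of the membrane sector, was at 125 and 136 against 128 and 138 CPM. Atp6v1a, the catalytic subunit, was at 158 and 166 against 164 and 156 CPM. The larger difference between libraries of a group exceeded the difference between group means in all 3 genes. Means of 2 libraries vary less than single libraries.

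Of the TFEB family, Tfe3 had the highest level per length, at 6.79 FPKM against 2.25 for Tfeb and 1.11 for Mitf. Tfeb (ENSMUSG00000023990) stood at 14.1 and 13.5 CPM under NC siRNA against 12.6 and 11.1 CPM under Ptbp1 siRNA. Both Ptbp1 siRNA libraries were lower, with a log2 fold change of -0.22 (SE 0.15, 95% interval -0.54 to 0.10, edgeR adjusted p = 1.00). It was -0.13 without Ptbp1 siRNA 2 and -0.32 without Ptbp1 siRNA 1. Mitf was at 8.61 and 6.94 against 7.03 and 4.97 CPM, which are 138, 104, 102 and 74 counts. Its groups overlapped, and the log2 fold change of -0.38 had an SE of 0.22 (95% interval -0.85 to 0.09, edgeR adjusted p = 1.00). It was -0.15 without Ptbp1 siRNA 2 and -0.65 without Ptbp1 siRNA 1. Tfe3 was at 62.38 and 61.7 against 62.41 and 66.2 CPM, and Ptbp1 siRNA 1 lay beside NC siRNA 1.

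Groups that did not overlap were found for 8 of the 43 genes. Atg16l1, Mcoln1 and Tfe3 were higher in both Ptbp1 siRNA libraries (6.98% of the members), and Becn1, Map1lc3b, Ctsa, Hexa and Tfeb were lower (11.6%). Over all tested genes these shares were 15.6% and 15.9%. The difference between group means was larger than the larger difference between libraries of a group for Becn1, Map1lc3b, Hexa, Mcoln1 and Tfeb, 5 of 43 members (11.6%), and for 20.6% of all tested genes. The median absolute difference between the group means was 0.037 on the log2 scale over the members, beside 0.10 between the NC siRNA libraries and 0.091 between the Ptbp1 siRNA libraries. Over all tested genes the order was the same, at 0.082, 0.127 and 0.117. Means of 2 libraries vary less than single libraries, so a smaller value between the groups can come from spread alone.

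**Figure D3:**
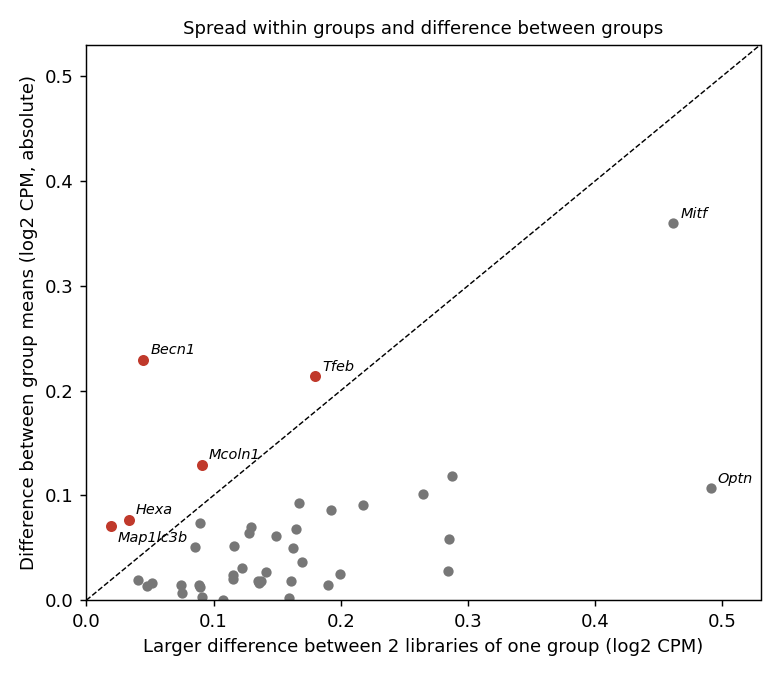
Absolute difference between group means (vertical axis) against the larger of the differences between libraries of one group (horizontal axis), both in log2 CPM with 0.5 added, for each of the 43 genes. The dashed line marks equality. The 5 red points above it are Becn1, Map1lc3b, Hexa, Mcoln1 and Tfeb.

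**Figure D4:**
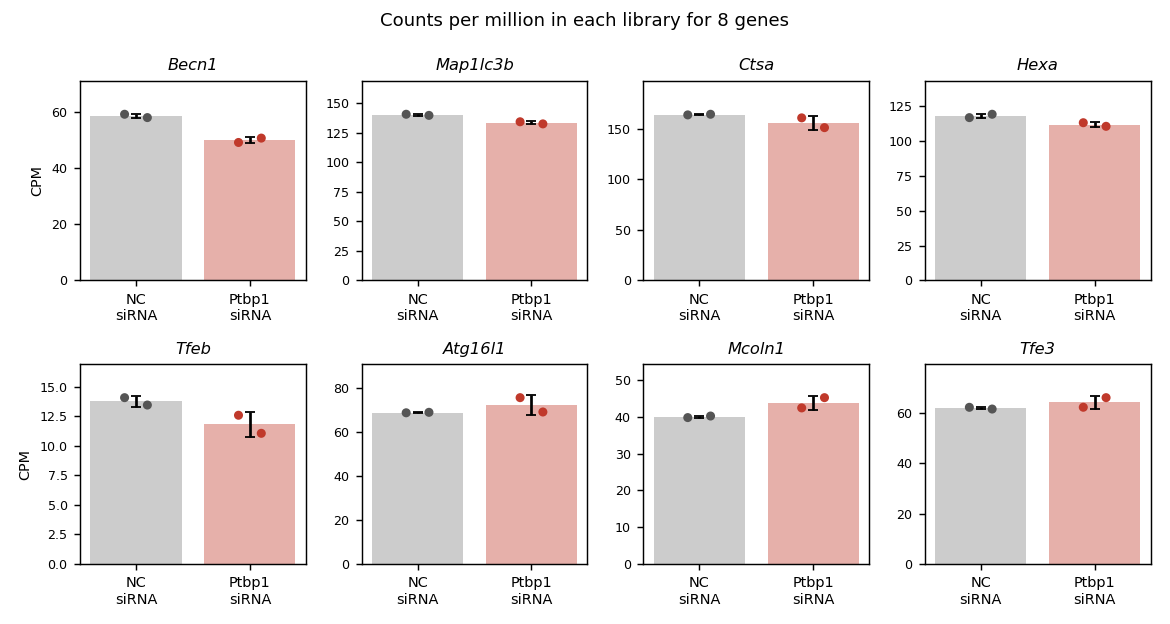
CPM in each library (points) with the mean (bars) and SD (error bars, n = 2) for the 8 genes whose groups did not overlap. Becn1 shows the widest gap between the groups relative to its spread, and Atg16l1 and Tfe3 each have 1 Ptbp1 siRNA library at the level of NC siRNA.

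Further genes of the pathway, 134 in 5 lists by role, gave 0 calls at an adjusted p of 0.05 in the edgeR test (0 with DESeq2 and 0 with limma), and 133 of them passed the filter. The gene not tested was Tfec, a relative of TFEB, with 6 to 12 counts per library. At an unadjusted p under 0.05, 2 of the 133 were lower and none was higher, against 2.29% and 1.69% of all tested genes. They were Atg4a, a protease that processes Atg8 proteins, at 16.5 and 15.8 CPM under NC siRNA against 12.7 and 12.2 CPM under Ptbp1 siRNA (-0.37 on the log2 scale with an SE of 0.14, and an edgeR adjusted p of 1.00), and Ids. Ids, a sulfatase of glycosaminoglycan breakdown, was at 73.7 and 76.7 against 67.5 and 66.7 CPM (-0.16, SE 0.072). Both libraries of a group lay apart from both of the other in these 2 genes. Of the 133, groups did not overlap for 23 lower genes (17.3%, against 15.9% of all tested genes) and 12 higher genes (9.02%, against 15.6%).

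The median log2 fold change was -0.0071 over 35 further autophagy genes, with Rab7, the small GTPase of late endosomes and the highest of them per length, at 292 and 291 against 311 and 295 CPM. It was -0.04 over 37 further hydrolases, 27 of them below 0, and 0.03 with 16 of 37 below 0 without Ptbp1 siRNA 2. Scpep1, a serine carboxypeptidase gene and the highest of these, stood at 158 and 137 against 140 and 129 CPM. Over 24 further membrane and sorting genes the median was 0.006, with Laptm4a at 644 and 711 against 675 and 664 CPM and Tmem192, which had the smallest p of the list, at 17.1 and 16.9 against 20.3 and 19.9 CPM (log2 fold change 0.24, SE 0.12). Over 15 further proton pump subunits it was -0.02, with Atp6v1g1 at 156 and 172 against 159 and 167 CPM. Atp6v1g2, an isoform known from neurons, had 31, 38, 55 and 46 counts (log2 fold change 0.62, SE 0.31, edgeR adjusted p = 1.00). Over 22 tested genes of mTORC1 and lysosomal signalling it was 0.01. Prkaa1, the catalytic subunit of the energy sensor AMPK, was at 89.5 and 96.0 against 97.6 and 108 CPM, and the GTPase gene Rraga at 116 and 114 against 114 and 124 CPM.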

How the data were processed

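RNA sequencing of 4 libraries was used, 2 per siRNA. The authors deposited whole-number counts per gene, not normalized, and FPKM values on a library size scaled between libraries, as recomputed from counts and lengths. The authors also deposited group means as a signal of scaled counts (not used in the results), a log2 fold change and p-values. GRCm38 and mm10, names of the same assembly, are given in the submitters' processing notes. No source used here gives the aligner, counter, strand setting or annotation release.

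The count test was the quasi-likelihood test of edgeR 4.0.16, run under R 4.3.3 (TMM scaling, filterByExpr defaults, group as the only term, 2 residual degrees of freedom), and p-values were adjusted over 16368 genes. CPM use TMM-scaled sizes, and SE and intervals come from the quasi-F statistic. The step was tested on simulated data with 2-fold changes only. These are larger than the difference of any member, so the simulation does not cover differences of the members' size. Alternatives were median-ratio scaling, no scaling factor, DESeq2 1.42.0, limma 3.58.1 on log2(FPKM + 1), no filter, a mean of at least 1 CPM, a block for the replicate number, and each library left out. Sequence sharing and exon overlap were computed on GENCODE M21, also GRCm38. The members, lists and the rule for named genes (every member; per further list the smallest p and the highest FPKM) were chosen with earlier results of these data known. No molecular identifiers are mentioned, so counts can include PCR copies.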

Additional observations from a re-analysis of the deposited data

How the results depend on the processing

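None of the 43 members and none of the further pathway genes was called under any of the 11 alternatives, and the median log2 fold change of the members stayed between -0.04 and 0.0085. Calls over all genes numbered 4 in the main test, 50 with no filter and 0 with limma. Members lower at an unadjusted p under 0.05 numbered 0 with DESeq2, where 0.512% of all genes had such a p in either direction. Fits without 1 library or with a block have fewer residual degrees of freedom, and their spread leans more on other genes. Counts over all genes are therefore not given for the fits without 1 library. Ptbp1 had a log2 fold change of -0.57 with limma on log2(FPKM + 1) and an adjusted p of 0.485, and the cause was not tested. With the replicate number as a block, 36 genes were called, none of them a member, and Becn1 had the smallest adjusted p of the members, 0.281. Deviations of same-numbered libraries correlated at 0.09. With 2 libraries per group this is a single value, which cannot show whether the numbers pair the samples. The labels state no pairing, and the main test used none. The sign of near-zero values turned with the scaling or the filter for Ctsl and Ulk1. Ctsl stood at 9.8e-05 with median-ratio scaling, and Ulk1 at -0.0041 with no scaling factor and -0.0033 with no filter. The median over all members moved the same way, from -0.0149 in the main test to -0.0134, -0.0210 and -0.0203 in these fits. The median over all genes tested moved from 0.00036 to 0.0018 with median-ratio scaling and to -0.0059 with no scaling factor. With no filter it was 0.0056, over a larger set of genes. The cause was not tested. Leaving out each library in turn, 11 members kept their sign (Becn1, Wipi1, Atg16l1, Map1lc3b, Ctsa, Hexa, Lamp2, Mcoln1, Tfeb, Tfe3 and Mitf). Groups that do not overlap keep their sign here, apart from small shifts in scaling. All of the 11 but Wipi1, Lamp2 and Mitf had such groups. So had 15.6% (higher) and 15.9% (lower) of all tested genes, and the share of all genes that kept their sign was not computed. Some of the 11 came close to 0. Lamp2 reached -2.4e-06 without NC siRNA 2, Wipi1 -0.011 without NC siRNA 1, Atg16l1 0.0051 without Ptbp1 siRNA 1, and Tfe3 0.0095 and Ctsa -0.028 without Ptbp1 siRNA 2. The log2 fold changes of the others crossed 0, a range that comes from fewer samples. It was -0.081 to 0.082 for Ulk1, -0.15 to 0.015 for Ulk2, -0.031 to 0.058 for Atg13, -0.17 to 0.11 for Rb1cc1, -0.046 to 0.099 for Atg14, -0.036 to 0.0099 for Wipi2, -0.031 to 0.24 for Atg9a, -0.075 to 0.12 for Atg3. For further members it was -0.0092 to 0.19 for Atg5, -0.11 to 0.083 for Atg7, -0.031 to 0.13 for Atg12, -0.12 to 0.048 for Map1lc3a, -0.11 to 0.0072 for Gabarap, -0.051 to 0.043 for Gabarapl1, -0.028 to 0.26 for Gabarapl2, -0.053 to 0.084 for Sqstm1. For further members it was -0.37 to 0.13 for Optn, -0.031 to 0.043 for Nbr1, -0.086 to 0.050 for Ctsb, -0.092 to 0.031 for Ctsd, -0.057 to 0.053 for Ctsl, -0.10 to 0.062 for Ctsz, -0.20 to 0.084 for Gaa, -0.14 to 0.012 for Gla. For further members it was -0.20 to 0.018 for Psap, -0.060 to 0.030 for Lamp1, -0.0034 to 0.039 for Cd63, -0.053 to 0.087 for Npc1, -0.040 to 0.078 for Npc2, -0.034 to 0.083 for Atp6v0d1, -0.054 to 0.023 for Atp6v1a, -0.043 to 0.0091 for Atp6v1h. Dixon's gap could not be computed with 2 libraries a group.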
